A study of Mus musculus with 18 samples.

Results

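The Hox cluster genes described here were the 39 gene symbols made of HOX, a cluster letter from A to D and a number, out of the 24333 symbols listed for both cell lines. They were matched by name, and the set was chosen with earlier results of these data known. In the mm9 build of the mouse genome they lay in 4 clusters. HoxA spanned 105.5 kb of chromosome 6 (chr6:52105366-52210874, 11 genes), HoxB 173.9 kb of chromosome 11 (chr11:96055630-96229570, 10 genes), HoxC 115.7 kb of chromosome 15 (chr15:102751534-102867274, 9 genes) and HoxD 96.8 kb of chromosome 2 (chr2:74506367-74603200, 9 genes). In 67NR cells that had lost *Kmt2c* or *Kmt2d*, *Hoxa2*, *Hoxa3*, *Hoxa5*, *Hoxa9* and *Hoxa10* fell and *Hoxb4* rose, whereas *Hoxa7*, inside the same HoxA cluster, did not pass the test in either knockout (KO). In 168FARN cells no Hox gene passed it in the fit used throughout, which had no replicate block. With the replicate number as a block, *Hoxd4* was called in the *Kmt2c* KO. *Hoxa10* was called in the *Kmt2d* KO by DESeq2 with that block only.

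Hox genes encode homeodomain transcription factors that give cells their position along the head-to-tail axis. Low numbers sit at the 3′ end of a cluster and are used towards the head, high numbers sit at the 5′ end and are used towards the tail, and the set of Hox genes that a cell keeps on is called its Hox code. KMT2C and KMT2D are histone methyltransferases that place H3K4 monomethylation at enhancers. The related KMT2A is the classical keeper of active Hox genes. In the mammary gland *Hoxa5* is known for its frequent silencing in breast cancer, and *Hoxa9*, together with *Hoxb9* and *Hoxd9*, for its part in the growth of the gland during pregnancy.

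The samples were polyA RNA-seq libraries of 2 mouse mammary tumour cell lines, 168FARN and 67NR, which come from the same spontaneous mammary tumour of a BALB/c-background mouse and are classed as non-metastatic. Each line was sequenced as wild type (WT), as a *Kmt2c* KO and as a *Kmt2d* KO, with 3 replicates per group, 6 groups and 18 libraries in all. KO cells had received 3 single guide RNAs against the gene in question together with a transient *Cas9* plasmid and were sorted as pools, not grown as clones, so a KO library can hold cells with different or incomplete edits. In both lines the study reported a lower share of mutant reads for *Kmt2c* than for *Kmt2d*. The share was lowest for *Kmt2c* in 67NR, so editing was unequal between the groups compared below. The count columns of the 168FARN WT libraries are named for a control guide RNA and those of 67NR for WT, so the controls of the lines may not have been handled alike. The replicates were collections of the same cultures at successive passages, and the p-values below measure the spread between such collections.

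Each library held between 14359760 and 43427382 counts in 168FARN and between 40951775 and 79251530 in 67NR, and in 67NR between 93.3% and 96.4% of the counts from 1 to 9 were even, against 35.1% to 44.0% in 168FARN. Replicate 3 stood apart in every group. The summed Hox level lay between 41.7 and 48.8 CPM (counts scaled to a common library size) in the 3 replicate 3 libraries of 168FARN and between 72.5 and 84.8 in the other 6. In 67NR replicate 3 was instead the highest of each group. *Rn45s* took 28.8% of the counts in replicate 3 of the 67NR *Kmt2d* KO. Each targeted gene was still transcribed in its own KO. *Kmt2c* read between 48.0 and 98.5 CPM in the *Kmt2c* KO of 168FARN and between 82.9 and 92.2 CPM in that of 67NR. *Kmt2d* read between 138.5 and 299.5 CPM in the *Kmt2d* KO of 168FARN and between 90.95 and 141.3 CPM in that of 67NR. *Kmt2c* was called higher in both 67NR KOs, and the level of an edited transcript checks no label. Of the markers of the labelled tissue, *Epcam*, *Cdh1*, *Krt18* and *Krt19* were below 1 CPM in all 168FARN groups and above it in all 67NR groups. The remaining epithelial marker of the list, *Krt8*, was well expressed in both lines. Its means in 168FARN were 217.2 CPM in WT, 166.8 CPM in the *Kmt2c* KO and 199.8 CPM in the *Kmt2d* KO. Of 5 leukocyte markers 4 (*Ptprc*, *Cd3e* and *Itgam* among them, but not the macrophage marker *Cd68*) and the adipocyte markers were below 1 CPM in every group, and the 3 endothelial markers summed to at most 5.21 CPM in any library. Among these, *Cdh5* was called higher in the *Kmt2c* KO of 168FARN (means 0.774 CPM in WT and 4.77 CPM in the KO). *Cdh5* and the adipocyte marker *Plin1* were called higher in both KOs of 67NR.

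Few of the 39 Hox genes were transcribed at an appreciable level. CPM here are normalized by the trimmed mean of M values (TMM), and a gene was counted into a group's Hox code at a group mean of at least 1 CPM, which 45.4% of all symbols reached in 168FARN WT and 47.4% in 67NR WT cells. Of the Hox genes, 13 reached it in at least 1 of the 6 groups. The other 26 stayed below it in all groups, the highest group mean among them being 0.995 CPM for *Hoxb5* in 168FARN *Kmt2d* KO cells. No read was counted for 10 of the 26 in any library (*Hoxa11*, *Hoxb1*, *Hoxb13*, *Hoxc8*, *Hoxc9*, *Hoxc10*, *Hoxd1*, *Hoxd9*, *Hoxd12* and *Hoxd13*), which, at 3 counts per library, allows up to 0.0355 CPM in the deepest library and 0.215 CPM in the shallowest, counting error only. The deepest is a 67NR library, and if each fragment added 2 counts there, the limit would be 0.0706 CPM. The low-numbered genes made up the codes. Of the 27 genes of paralogue groups 1 to 9, 12 reached 1 CPM, and of the 12 genes of groups 10 to 13 only *Hoxa10* did so.

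The WT codes of the 2 lines shared 7 HoxA genes, *Hoxa2* to *Hoxa7* among them, and differed outside these. 168FARN WT cells used 11 genes, namely those and *Hoxb3*, *Hoxb4*, *Hoxb6* and *Hoxc6*. 67NR WT cells used 9 genes, all in HoxA, with *Hoxa9* and *Hoxa10* added at the 5′ side. No HoxD gene belonged to a code at 1 CPM, whereas at 0.5 CPM the 168FARN code held 16 genes, with *Hoxd3* and *Hoxd4* among them, and the 67NR code 11, with *Hoxd4*. Levels of different genes were compared per kilobase of merged exon (CPM per kb).

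**Figure D1:**
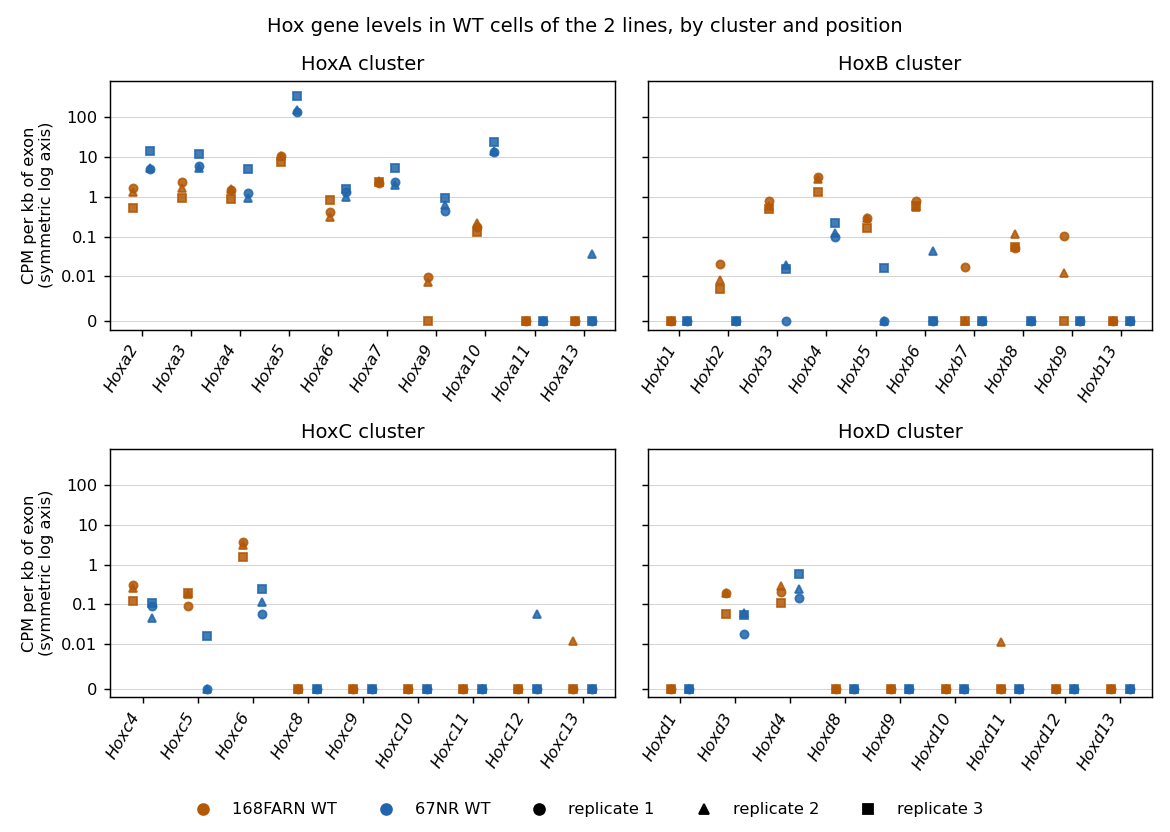
Levels of 38 Hox genes in the WT libraries, in CPM per kb of exon on a symmetric log axis, by cluster and from low to high gene number; each point is a library, coloured by line and shaped by replicate number. HoxA points of 67NR reach past 100 at *Hoxa5* and above 10 at *Hoxa10*, whereas points of *Hoxb3* to *Hoxb6* and *Hoxc6* are higher in 168FARN.

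In both lines *Hoxa5* was the most abundant Hox transcript per kb. It stood at 9.57 ± 1.78 CPM per kb in 168FARN WT cells (SD, n = 3) and at 204.5 ± 109 in 67NR WT cells, and in neither line did its 3 libraries overlap with those of the next gene. In 168FARN the order below it was *Hoxc6* (2.76), *Hoxb4* (2.41), *Hoxa7* (2.31), *Hoxa3* (1.65), *Hoxa4* (1.29), *Hoxa2* (1.18), *Hoxb6* (0.633), *Hoxb3* (0.627) and *Hoxa6* (0.520), and each of these neighbours overlapped with the next. In 67NR the order was *Hoxa10* (16.7), *Hoxa2* (7.96), *Hoxa3* (7.65), *Hoxa7* (3.15), *Hoxa4* (2.35), *Hoxa6* (1.28) and *Hoxa9* (0.672), with a gap between the libraries of *Hoxa3* and *Hoxa7* and another between those of *Hoxa6* and *Hoxa9*. The level therefore did not follow the position in the cluster in either line.

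For 3 genes of the contrasts that follow, the 250 bases upstream of a RefSeq start are printed here. *Hoxa5* (chr6:52154587-52154836, minus strand) fell in both KOs of 67NR. The level of *Hoxa7* (chr6:52168573-52168822, minus strand) did not pass the test there, and *Hoxb4* (chr11:96179331-96179580, plus strand) rose. The sequences come from the RefSeq promoter table for GRCm38.p6, each matched 1 place in the mm9 sequence, and the positions are those of mm9. Only the *Hoxa5* window borders the gene as annotated for the exon lengths (GENCODE vM1). Those of *Hoxa7* and *Hoxb4* lie inside their annotated genes (chr6:52164490-52171853 and chr11:96177998-96182952), so the windows are not alike in kind. Capitals mark CG dinucleotides.
Hoxa5: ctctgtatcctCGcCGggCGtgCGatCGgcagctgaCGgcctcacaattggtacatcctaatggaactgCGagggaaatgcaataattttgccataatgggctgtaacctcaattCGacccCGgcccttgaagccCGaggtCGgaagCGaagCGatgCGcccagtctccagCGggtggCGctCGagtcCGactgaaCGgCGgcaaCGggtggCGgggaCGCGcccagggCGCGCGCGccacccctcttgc
Hoxa7: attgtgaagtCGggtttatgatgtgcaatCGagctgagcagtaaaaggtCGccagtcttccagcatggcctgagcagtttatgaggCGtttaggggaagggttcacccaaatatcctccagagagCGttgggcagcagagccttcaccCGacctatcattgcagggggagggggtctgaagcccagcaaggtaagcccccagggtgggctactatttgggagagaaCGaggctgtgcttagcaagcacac
Hoxb4: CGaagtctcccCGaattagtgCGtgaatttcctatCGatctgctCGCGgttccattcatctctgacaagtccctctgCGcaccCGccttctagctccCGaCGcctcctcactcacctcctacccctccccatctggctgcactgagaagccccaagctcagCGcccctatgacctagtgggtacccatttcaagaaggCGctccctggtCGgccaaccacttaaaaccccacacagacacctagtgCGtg
The *Hoxa5* stretch held 28 CG pairs, that of *Hoxb4* 14 and that of *Hoxa7* 7, against a median of 6 over the 32851 promoter windows of the table when cut to the same 250 bases and 12.5 (range 2 to 35) over the 24 windows that belonged to 22 Hox genes. Windows of other HoxA genes that fell in 67NR held 3 (*Hoxa9*), 6 (*Hoxa2*), 18 (*Hoxa3*), 24 (*Hoxa6*, called in the *Kmt2c* KO) and 7 and 20 (*Hoxa10*) CG pairs. No link between CG pairs and the KO change is therefore read from the printed windows. Motifs were searched as exact letters on both strands. AGGTCA, the core letters bound by retinoic acid receptors and related nuclear receptors, was found in *Hoxb4* and in 14% of all windows, CCAAT in *Hoxa5* and in 33.8%, and neither TGATNNAT (7.68%), a binding motif of PBX and Hox proteins, nor TATAAA (12.4%) was found in any of the 3. None of the 4 motifs was found in *Hoxa7*.

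The share of the summed Hox level (CPM per kb over the 39 genes) held by each cluster set the lines apart. In 168FARN WT cells HoxA held 70.5% ± 4.12 (SD, n = 3), HoxB 15.9% ± 1.95, HoxC 12.2% ± 1.93 and HoxD 1.36% ± 0.475. HoxA held 99.7% ± 0.0800 in 67NR WT cells, of which *Hoxa5* alone made up 82.0% ± 1.61. In 168FARN WT cells *Hoxa5* made up 38.3% ± 2.0. These shares are ratios within a library, and although the *Hoxa5* level of 67NR WT differed by more than 2-fold between collections, its share of the Hox total stayed between 80.6% and 83.8%.

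**Figure D2:**
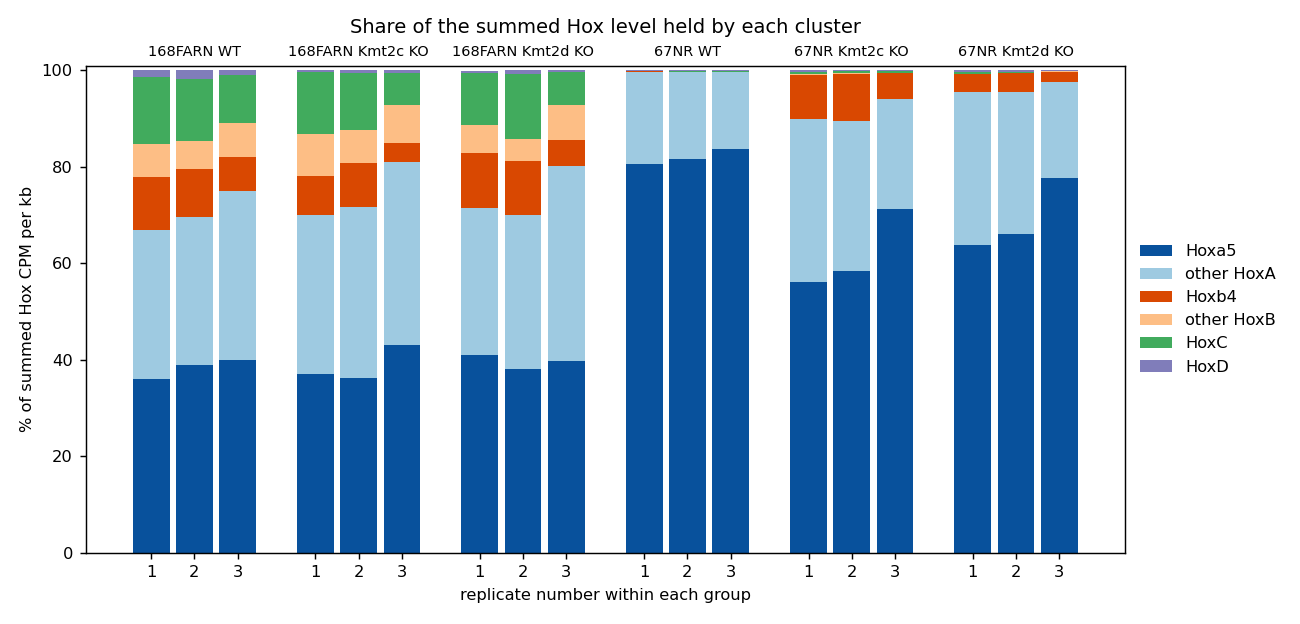
Share of the summed Hox level (% of CPM per kb over 39 genes) in each of the 18 libraries, stacked by cluster with *Hoxa5* and *Hoxb4* drawn apart. HoxA fills 99.7% on average in 67NR WT and 91.1% and 96.2% in its *Kmt2c* and *Kmt2d* KOs, where *Hoxb4* takes most of the rest, and between 70.5% and 74.2% in the 3 groups of 168FARN.

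Between the WT cells of the lines, 12 of the 18 Hox genes that had enough counts to be tested differed (edgeR quasi-likelihood test, called at Benjamini-Hochberg adjusted p below 0.1 and an absolute log2 fold change above 0.6), 6 higher in 67NR, where 22.3% of all genes tested were higher, and 6 lower, where 16.9% were (39.2% in either direction). The median log2 difference was 0.55 over the 18 and 0.04 over all 13882 genes tested. In *Hoxa5* the 168FARN libraries read 19.7, 20.0 and 14.1 CPM and the 67NR libraries 256.3, 275.2 and 620.1 CPM (replicates 1, 2 and 3). In *Hoxa10* they read 0.684, 0.825 and 0.497 CPM against 49.9, 52.8 and 89.2 CPM. Every 67NR library lay far above every 168FARN library in both genes, and the log2 differences were 4.42 ± 0.48 (SE, edgeR adjusted p = 2.96e-06) and 6.58 ± 0.62 (edgeR adjusted p = 6.51e-07).

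Genes of the 3′ side of HoxA were also higher in 67NR, by log2 2.75 ± 0.63 for *Hoxa2* and 2.21 ± 0.44 for *Hoxa3* (edgeR adjusted p = 0.00274 and 0.000913). *Hoxa9* was called higher as well, with 424 counts in the 67NR WT libraries together and 2 in those of 168FARN, too few for a fold. *Hoxa4*, *Hoxa6* and *Hoxa7* were not called. For *Hoxa7* the log2 difference was 0.45, with a 95% interval from -0.24 to 1.14, and the libraries of the lines overlapped (6.29, 7.09 and 6.55 CPM in 168FARN, 6.69, 5.55 and 15.0 CPM in 67NR).

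The genes that 168FARN used outside HoxA were near zero in 67NR. *Hoxb4* read 13.1, 11.4 and 5.49 CPM in the 168FARN libraries and 0.414, 0.514 and 0.918 CPM in those of 67NR, and *Hoxc6* 9.10, 7.64 and 3.98 CPM against 0.142, 0.294 and 0.597 CPM. Neither gene overlapped between the lines. The log2 differences were -4.04 ± 0.58 for *Hoxb4* and -4.36 ± 0.71 for *Hoxc6* (edgeR adjusted p = 4.57e-05 and 0.000158). *Hoxb3*, *Hoxb5*, *Hoxb6* and *Hoxc5* were called lower too, on 6, 2, 6 and 2 counts in the 67NR WT libraries together against 191, 71, 135 and 50 in those of 168FARN. With the replicate number as a block, *Hoxa6*, *Hoxc4* and *Hoxd3* were called in addition. The line was the only label that set these groups apart besides the naming of the controls, so line and handling cannot be told apart.

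In 67NR, loss of either methyltransferase was accompanied by lower HoxA levels. Of the 39 Hox genes 13 passed the filter on low counts, which a gene can pass through the group in which it is high. In *Kmt2c* KO cells 8 of the 13 were lower than in WT, against 17.4% of all genes tested, and 1 was higher, against 17.9% (35.3% in either direction). In *Kmt2d* KO cells 5 were lower, against 11.6%, and 1 was higher, against 13.9% (25.5% in either direction). The median log2 fold change of the 13 was -1.32 in the *Kmt2c* KO and -1.41 in the *Kmt2d* KO, beside -0.02 over all 13665 genes tested in each. Both comparisons used the same 3 WT libraries. These are bulk libraries, in which fewer cells of a type and less RNA per cell cannot be told apart.

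*Hoxa5* showed the change at the highest level. It read 256.3, 275.2 and 620.1 CPM in the WT libraries, 34.7, 34.4 and 64.9 CPM in the *Kmt2c* KO and 55.9, 64.1 and 156.8 CPM in the *Kmt2d* KO. All KO libraries lay below all WT libraries, and in each genotype replicate 3 was the highest. The group means differed 8.59-fold and 4.16-fold. The log2 fold change was -3.02 ± 0.52 in the *Kmt2c* KO (edgeR adjusted p = 0.00191) and -1.99 ± 0.50 in the *Kmt2d* KO (edgeR adjusted p = 0.0194). Between KO and WT libraries of the same replicate number the log2 ratios were -2.87, -2.98 and -3.25 for the *Kmt2c* KO. They were -2.19, -2.09 and -1.98 for the *Kmt2d* KO. Both spreads were narrower than that of the levels, but the labels do not say that such libraries were collected together.

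On the 5′ side of *Hoxa5*, *Hoxa10* read 49.9, 52.8 and 89.2 CPM in WT, 8.92, 8.40 and 8.92 CPM in the *Kmt2c* KO and 19.4, 18.9 and 28.4 CPM in the *Kmt2d* KO. The 3 groups did not overlap. It fell by 2.79 ± 0.27 and 1.45 ± 0.25 on the log2 scale (edgeR adjusted p = 6.52e-05 and 0.00355). *Hoxa9*, a leukaemia-associated gene that sits next to it, read 1.56, 2.17 and 3.31 CPM in WT, 0.417, 0.153 and 0.235 CPM in the *Kmt2c* KO and 0.793, 0.883 and 0.201 CPM in the *Kmt2d* KO, and thereby left the code of both KOs. It fell by 3.02 ± 0.65 and 1.81 ± 0.61 on the log2 scale (edgeR adjusted p = 0.00628 and 0.0637), the latter call being lost in 4 of the 6 fits that left out 1 library. *Hoxa6* fell in the *Kmt2c* KO, by 1.22 ± 0.46 on the log2 scale (edgeR adjusted p = 0.0653), a call lost in 4 of 6 such fits, and in the *Kmt2d* KO was called only with the replicate block (log2 -1.15 without and -1.20 with it, edgeR adjusted p = 0.105 and 0.0245). Its libraries read 2.6, 2.03 and 3.12 CPM in WT, 1.46, 0.764 and 0.892 CPM in the *Kmt2c* KO and 0.812, 0.699 and 1.83 CPM in the *Kmt2d* KO, without overlap with WT.

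On the 3′ side, *Hoxa3* read 40.6, 36.7 and 79.5 CPM in WT, 9.68, 10.2 and 9.32 CPM in the *Kmt2c* KO and 14.4, 18.3 and 21.5 CPM in the *Kmt2d* KO, again 3 groups without overlap. It fell by 2.34 ± 0.30 and 1.46 ± 0.30 on the log2 scale (edgeR adjusted p = 0.000402 and 0.00741). *Hoxa2*, which patterns the hindbrain and the branchial arches, read 11.7, 12.4 and 33.7 CPM in WT, 3.73, 2.61 and 3.83 CPM in the *Kmt2c* KO and 3.58, 3.83 and 9.94 CPM in the *Kmt2d* KO, with all KO libraries below all WT libraries. It fell by 2.42 ± 0.53 and 1.67 ± 0.52 on the log2 scale (edgeR adjusted p = 0.00685 and 0.0459), and the call in the *Kmt2d* KO was lost in 3 of the 6 fits that left out 1 library. Of the exon bases of *Hoxa2*, 11% are also *Hoxa3* exons, and 24.1% of those of *Hoxa3* lie opposite antisense genes, so their counts are partly uncertain.

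Between these genes and *Hoxa5*, *Hoxa4* read 1.93, 1.51 and 7.79 CPM in WT, and its KO libraries lay between 1.05 and 1.62 CPM. It was not called (log2 -1.31 and -1.48, edgeR adjusted p = 0.113 and 0.103), but was with the replicate block (log2 -1.03 and -1.17, edgeR adjusted p = 0.0765 and 0.0613). The *Hoxa4* difference rested on WT replicate 3, the other 2 WT libraries lying inside or close to the range of the KO libraries.

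*Hoxa7* was the expressed HoxA gene with the least difference. It read 6.69, 5.55 and 15.0 CPM in WT, 8.99, 7.30 and 8.68 CPM in the *Kmt2c* KO and 6.94, 7.29 and 9.79 CPM in the *Kmt2d* KO, and the 3 groups overlapped. The log2 fold change was -0.04 in the *Kmt2c* KO (95% interval from -0.84 to 0.77) and -0.10 in the *Kmt2d* KO (from -0.91 to 0.70), intervals that still allow a fall or a rise of more than 0.6. Leaving out WT replicate 3 turned the values to 0.53 and 0.46. Set against *Hoxa7* within the same library, which removes the scaling of the library, the log2 ratio of *Hoxa5* counts was 5.26, 5.63 and 5.37 in WT, 1.95, 2.24 and 2.90 in the *Kmt2c* KO and 3.01, 3.13 and 4.0 in the *Kmt2d* KO. Ratios to *Hoxa7* of *Hoxa2*, *Hoxa3*, *Hoxa5*, *Hoxa6*, *Hoxa9* and *Hoxa10* were lower in all KO than in all WT libraries in each of the 12 comparisons of gene and KO. The 6 genes and the reference were picked by whether they were called, so the ratios are a description of the levels already given and no test of them. Of the exon bases of *Hoxa7*, 20.4% lie opposite an antisense gene.

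**Figure D3:**
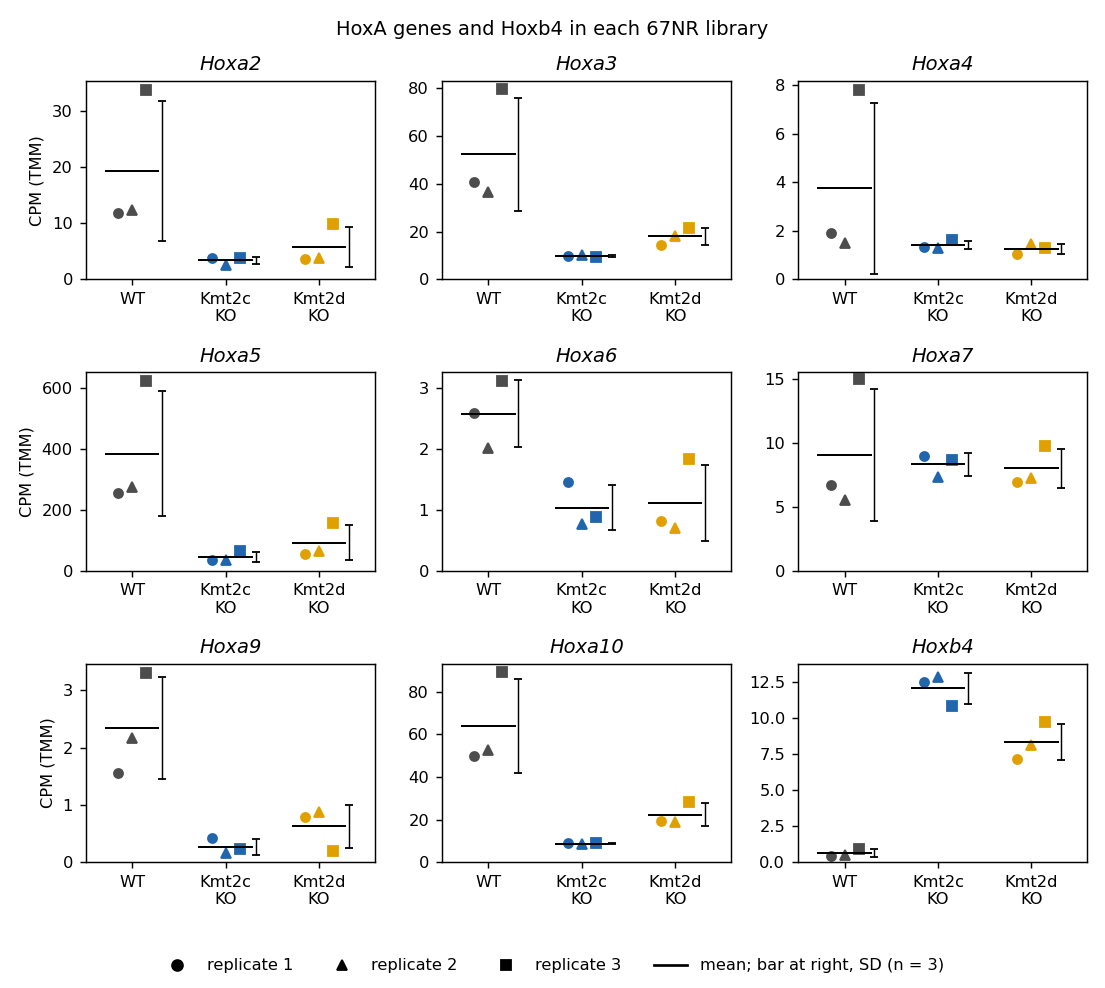
CPM of 8 HoxA genes and *Hoxb4* in each 67NR library, by genotype, with a separate linear axis for each gene; points are libraries shaped by replicate number, the line is the mean and the bar at the right is the SD (n = 3). *Hoxa2*, *Hoxa3*, *Hoxa5* and *Hoxa10* are lower in all KO libraries, *Hoxa7* overlaps between the 3 groups, and *Hoxb4* is below 1 CPM in WT and above 7 CPM in all KO libraries.

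*Hoxb4*, a gene known for expanding blood stem cells when it is supplied to them, moved the other way. It read 0.414, 0.514 and 0.918 CPM in WT, 12.5, 12.9 and 10.9 CPM in the *Kmt2c* KO and 7.20, 8.15 and 9.71 CPM in the *Kmt2d* KO. The group means were 19.6-fold and 13.6-fold above WT, with no overlap. It rose by log2 4.40 ± 0.33 in the *Kmt2c* KO (edgeR adjusted p = 1.63e-05) and 3.86 ± 0.32 in the *Kmt2d* KO (edgeR adjusted p = 5.02e-05), and entered the code of both. Its share of the summed Hox level was 0.0613% in WT, 8.15% ± 2.41 in the *Kmt2c* KO and 3.23% ± 0.913 in the *Kmt2d* KO (SD, n = 3). The KO levels of 67NR, between 7.20 and 12.9 CPM, lay within the range of 5.49 to 13.1 CPM seen in 168FARN WT cells. Its neighbours in HoxB stayed near zero: *Hoxb3* had 6, 10 and 21 counts over the WT libraries, those of the *Kmt2c* KO and those of the *Kmt2d* KO, *Hoxb5* 2, 0 and 0, and *Hoxb6* 6, 2 and 6.

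The other tested genes of 67NR were weakly expressed. *Hoxd4* read 0.378, 0.632 and 1.47 CPM in WT, 0.157, 0.0917 and 0.0469 CPM in the *Kmt2c* KO and 0.406, 0.258 and 0.201 CPM in the *Kmt2d* KO. It fell in the *Kmt2c* KO (log2 -2.90 ± 0.70, edgeR adjusted p = 0.0115) and was not called in the *Kmt2d* KO (log2 -1.41, edgeR adjusted p = 0.161). Since 67.4% of its exon bases are also annotated to *Hoxd3*, the counts of the pair cannot be fully separated. *Hoxc4* and *Hoxc6*, with group means of at most 0.352 CPM in 67NR, were not called in either KO.

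Between the 2 KOs of 67NR, *Hoxa10* was lower in the *Kmt2c* than in the *Kmt2d* KO (log2 -1.34 ± 0.26, edgeR adjusted p = 0.0580), the only 1 of the 13 called, against 1.28% of all genes tested in that direction, 0.132% in the other and 1.41% in either, and the call was lost in 5 of the 6 fits that left out 1 library. With the replicate block *Hoxa3* (log2 -0.85, edgeR adjusted p = 0.0425) and *Hoxa5* (log2 -0.94, edgeR adjusted p = 0.00166) were called lower as well, making 3. For *Hoxb4* the difference was 0.54, with a 95% interval from -0.09 to 1.18, and for *Hoxa7* 0.07, with an interval from -0.74 to 0.87.

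**Figure D4:**
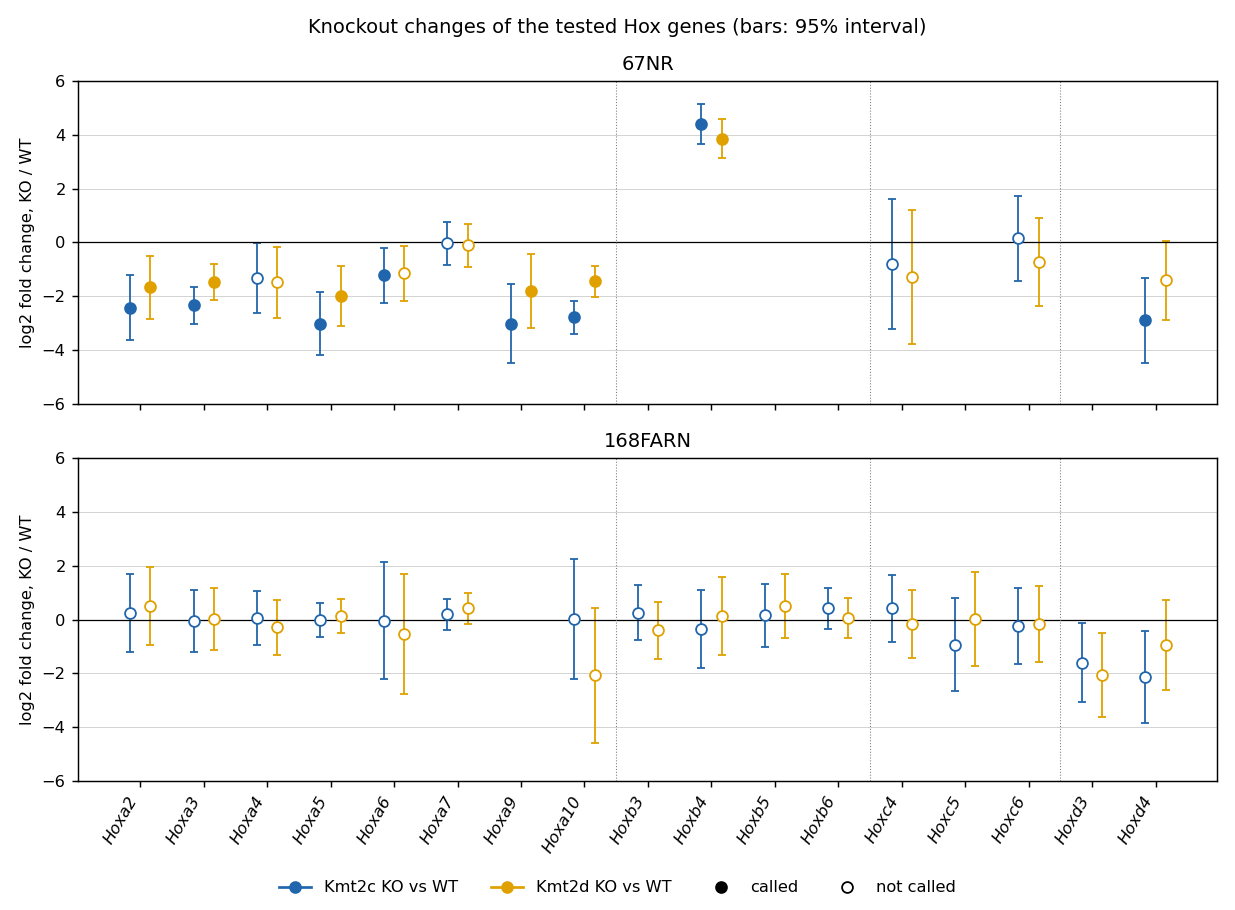
Log2 fold changes of KO against WT for the Hox genes tested, by line, in cluster order from *Hoxa2* to *Hoxd4*; bars are 95% intervals and filled points passed adjusted p below 0.1 with an absolute log2 fold change above 0.6. In 67NR the filled HoxA points lie between -3.02 and -1.22 and *Hoxb4* lies at 4.40 and 3.86, and in 168FARN every point is open.

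Some non-coding genes inside the HoxA cluster were also lower in the KOs of 67NR. Of 17 non-coding genes within the 4 clusters 5 had enough counts, and 3 were called lower in the *Kmt2c* KO (17.4% of all genes tested were) and 1 in the *Kmt2d* KO (11.6%). *Hotairm1*, an antisense RNA from the 3′ side of HoxA, read 21.9, 20.5 and 40.2 CPM in WT and 10.5, 11.4 and 14.6 CPM in the *Kmt2c* KO, without overlap, and fell there (log2 -1.10 ± 0.30, edgeR adjusted p = 0.0211). *Hoxaas3* fell in both KOs (log2 -1.86 and -1.55, edgeR adjusted p = 0.0356 and 0.0884), and *Hoxaas2* in the *Kmt2c* KO (log2 -2.70, edgeR adjusted p = 0.0266). *Mira*, named after its values were seen, was called in neither KO, with means of 8.14 CPM in WT, 6.35 CPM in the *Kmt2c* KO and 6.54 CPM in the *Kmt2d* KO (log2 -0.27 and -0.24, edgeR adjusted p = 0.477 and 0.588).

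Hox proteins bind DNA with PBX and MEIS partners of the TALE family. Of 9 TALE genes 8 were tested in 67NR, 2 (25%) were called lower in the *Kmt2c* KO and 1 (12.5%) in the *Kmt2d* KO, beside 17.4% and 11.6% of all genes tested. *Meis3* read 7.92, 6.54 and 7.88 CPM in WT, 1.28, 1.19 and 0.704 CPM in the *Kmt2c* KO and 1.07, 1.40 and 1.91 CPM in the *Kmt2d* KO. All its KO libraries lay below all WT libraries, and it fell by 2.72 ± 0.33 and 2.28 ± 0.33 on the log2 scale (edgeR adjusted p = 0.000278 and 0.00121). *Pbx4* fell in the *Kmt2c* KO (log2 -1.37, edgeR adjusted p = 0.0351) and was not called in the *Kmt2d* KO (log2 -0.67, edgeR adjusted p = 0.3).

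Retinoic acid is a classical inducer of 3′ Hox genes. Of 17 genes of its synthesis, transport, breakdown and receptors 13 were tested in 67NR, of which 2 were called higher and 4 lower in the *Kmt2c* KO, and 2 higher and 3 lower in the *Kmt2d* KO. These are 46.2% and 38.5% of the 13, beside 35.3% and 25.5% of all genes tested, and nothing particular to the list is read from them. *Dhrs3*, a retinaldehyde reductase that is itself induced by retinoic acid, read 43.5, 38.0 and 19.4 CPM in WT and at most 0.653 CPM in any KO library, and was called lower in both KOs on 12 and 32 counts. *Stra6*, the membrane receptor for retinol-binding protein, read 1.35, 1.47 and 2.09 CPM in WT, had 6 counts in the *Kmt2c* KO and 0 in the *Kmt2d* KO, and was there at least 81.1-fold lower when 3 counts are allowed over the group, or at least 40.6-fold if each fragment added 2 counts. *Cyp26b1*, which breaks retinoic acid down, rose from between 0.505 and 1.44 CPM to between 5.01 and 8.01 CPM (log2 2.66 ± 0.38 and 2.38 ± 0.38, edgeR adjusted p = 0.000702 and 0.00210). The 3 Cdx genes, upstream regulators of Hox genes in the embryo, had too few counts to be tested.

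Calls in 67NR also fell on genes around the clusters. Within 500 kb of the cluster ends lay 55 genes, of which 39 were tested, 8 were called higher and 8 lower in the *Kmt2c* KO, and 6 higher and 7 lower in the *Kmt2d* KO. That is 41% and 33.3% of the 39, beside 35.3% and 25.5% of all genes tested, and nothing particular to the neighbourhood is read from it. *Skap2*, an adaptor gene 142.8 kb from the HoxA cluster, read 222.2, 227.2 and 212.8 CPM in WT, 65.4, 69.1 and 75.6 CPM in the *Kmt2c* KO and 137.1, 114.7 and 141.5 CPM in the *Kmt2d* KO, 3 groups without overlap. It fell by 1.57 ± 0.14 and 0.68 ± 0.13 on the log2 scale (edgeR adjusted p = 3.38e-05 and 0.00624). *Phospho1*, 369.8 kb from *Hoxb13*, fell by 1.80 and 1.23 (edgeR adjusted p = 9.98e-05 and 0.00145), whereas the integrin gene *Itga5*, 329.9 kb from *Hoxc4*, rose by 2.05 and 1.54 (edgeR adjusted p = 4.96e-05 and 0.000431). *Pde1b*, 466.2 kb from *Hoxc4*, rose by 4.45 and 3.10 (edgeR adjusted p = 0.000546 and 0.00508).

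Markers of epithelial and mesenchymal cells moved along with the Hox genes in 67NR. The summed level of 5 epithelial markers lay between 2096 and 3402 CPM in WT, between 432.2 and 758.3 CPM in the *Kmt2c* KO and between 732.1 and 1525 CPM in the *Kmt2d* KO. Of these markers 5 of 5 and 4 of 5 (all but *Krt8*) were called lower, against 17.4% and 11.6% of all genes tested. The sum of 5 mesenchymal markers, most of it *Vim*, lay between 277.5 and 1318 CPM in WT, between 2805 and 4600.0 CPM in the *Kmt2c* KO and between 2113 and 4299 CPM in the *Kmt2d* KO. Of these, 4 of 5 (*Vim*, *Zeb1*, *Cdh2* and *Pdgfrb*) were called higher in each, against 17.9% and 13.9% of all genes tested. *Col1a1* was not called, with means of 2.35 CPM in WT, 1.34 CPM in the *Kmt2c* KO and 2.10 CPM in the *Kmt2d* KO. *Cdh1* fell by 2.80 and 1.36 and *Zeb1* rose by 3.86 and 3.38 on the log2 scale (edgeR adjusted p = 1.1e-05, 0.00085, 4.83e-06 and 1.56e-05). In 168FARN WT cells, which used *Hoxb4* and little *Hoxa10*, the epithelial sum lay between 127.3 and 397.2 CPM, nearly all of it *Krt8*. The mesenchymal sum there lay between 5998 and 6640.0 CPM. The part of this marker shift in the Hox changes was not tested.

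In 168FARN the codes of the KO cells were close to that of WT. *Kmt2c* KO cells used the same 11 genes, and *Kmt2d* KO cells used 10 of them, without *Hoxa6*, which was at 1.05 ± 0.555 CPM in WT and 0.692 ± 0.778 in the *Kmt2d* KO (SD, n = 3). Of the 17 Hox genes tested 0 were called in the *Kmt2c* KO, against 0.359% of all genes tested (0.196% higher and 0.163% lower), and 0 in the *Kmt2d* KO, against 0.286% (0.147% higher and 0.139% lower) (edgeR adjusted p below 0.1 and absolute log2 fold change above 0.6). DESeq2 without a block also called 0 in each. At an unadjusted p below 0.05 there were 2 in the *Kmt2c* KO (*Hoxd3* and *Hoxd4*) and 1 in the *Kmt2d* KO (*Hoxd3*). The median log2 fold change of the 17 was 0.02 and -0.08, beside 0.01 over all 12253 genes tested in each KO. Between the KOs 0 of the 17 were called as well, against 0.253% of all genes tested (0.131% higher and 0.122% lower), with 0 at an unadjusted p below 0.05 and 0 by DESeq2 without a block. Of the TALE, retinoic acid, in-cluster non-coding and flanking genes none was called in either KO.

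*Hoxa5* and *Hoxb4*, which moved most in 67NR, can be set beside it. In 168FARN *Hoxa5* read 19.7, 20.0 and 14.1 CPM in WT, 21.5, 18 and 13.5 CPM in the *Kmt2c* KO and 23.5, 21.0 and 13.6 CPM in the *Kmt2d* KO. Replicate 3 was the lowest in each group and the groups overlapped. The log2 fold changes were -0.02 (95% interval from -0.65 to 0.61) and 0.13 (from -0.51 to 0.76). *Hoxb4* read 13.1, 11.4 and 5.49 CPM in WT, 10.5, 10.1 and 2.71 CPM in the *Kmt2c* KO and 14.5, 13.6 and 4.18 CPM in the *Kmt2d* KO, with overlap throughout. Its log2 fold changes were -0.36 (95% interval from -1.81 to 1.08) and 0.12 (from -1.33 to 1.57). These intervals still allow a fall or a rise of more than 0.6.

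The genes nearest to a call in 168FARN were the HoxD pair, which lay below the code. *Hoxd3* read 1.09, 1.13 and 0.331 CPM in WT, 0.199, 0.267 and 0.355 CPM in the *Kmt2c* KO and 0.307, 0.0715 and 0.188 CPM in the *Kmt2d* KO (log2 -1.61 ± 0.64 and -2.07 ± 0.68, edgeR adjusted p = 0.746 and 0.618). *Hoxd4* read 0.513, 0.764 and 0.284 CPM in WT, 0.0662, 0.16 and 0.109 CPM in the *Kmt2c* KO and 0.263, 0.501 and 0.0754 CPM in the *Kmt2d* KO. All *Kmt2c* KO libraries of *Hoxd4* lay below all WT libraries, and with the replicate block it was called there (log2 -2.13, edgeR adjusted p = 0.0434) while without it it was not (log2 -2.15 ± 0.75, edgeR adjusted p = 0.614). *Hoxa10* had 20, 27 and 21 counts in WT, 22, 26 and 22 in the *Kmt2c* KO and 10, 0 and 0 in the *Kmt2d* KO (log2 -2.07, edgeR adjusted p = 1 in the latter). DESeq2 with the replicate block called that difference (log2 -2.58, DESeq2 adjusted p = 0.0569), and the *Kmt2d* KO library was the lower at each of the 3 replicate numbers. *Hoxb8*, too low to be tested, had 4, 10 and 6 counts in WT, 2, 0 and 0 in the *Kmt2c* KO and 0 in all 3 libraries of the *Kmt2d* KO, at most 0.306 CPM in any library.

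The difference between the lines in the KO effect was tested as an interaction in all 18 libraries. For the loss of *Kmt2c* 1 of 18 Hox genes was called with a higher effect in 67NR, against 8.49% of all genes tested, and 6 with a lower effect, against 7.55%, so 7 in either direction, against 16% of all genes. *Hoxa9* is 1 of the 6, on 2 and 10 counts in the WT and *Kmt2c* KO libraries of 168FARN, too few to read a line difference from. For the loss of *Kmt2d* 1 was called higher (6.68%) and 1 lower (3.92%, and 10.6% in either direction), and with the replicate block 5 were called in all, with *Hoxb3*, *Hoxa2* and *Hoxa3* added. *Hoxb4* (log2 difference of effects 4.68 ± 0.76 and 3.68 ± 0.75, edgeR adjusted p = 0.000594 and 0.00564) and *Hoxa5* (-3.08 ± 0.61 and -2.17 ± 0.60, edgeR adjusted p = 0.00298 and 0.0392) were called for both KOs. For *Hoxa7* the lines were not distinguished in either.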

How the data were processed

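RNA was extracted with RNeasy kits and made into polyA-selected libraries (KAPA mRNA HyperPrep). Alignment was done by the authors with STAR, run through the VIPER pipeline, against mm9, and they deposited raw counts per gene symbol, 1 table per line, with a column for each library. Whether the counting used strand is not given in the sources used here, so overlapping and antisense genes cannot be fully separated. Groups were taken from the sample labels.

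The deposited counts were tested with edgeR 4.0.16 in R 4.3.3 (TMM, filterByExpr, robust quasi-likelihood test, Benjamini-Hochberg adjustment over all genes tested), with the 9 libraries of a line for comparisons within it and all 18 for comparisons between lines. A gene was called at adjusted p below 0.1 with an absolute log2 fold change above 0.6. The SE of a log2 fold change was derived from its size and the F statistic. Levels are TMM-scaled CPM, divided by merged exon length (GENCODE vM1, NCBIM37) where genes are compared with each other. Ratios between libraries of the same replicate number used CPM plus 0.5. Intervals are 95% intervals, and 3 counts served as the limit of a count of 0, for counting error only. The scripts were tested on simulated data.

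Over genes, the deviations from the group means of same-numbered libraries correlated by 0.65 to 0.90 in 168FARN and 0.35 to 0.72 in 67NR (different numbers -0.82 to 0.73 and -0.60 to 0.52). The negative values came from replicate 3 set against replicates 1 and 2. Replicates 1 and 2 correlated across numbers about as well as within them. For example, 168FARN WT replicate 1 correlated by 0.73 with *Kmt2c* KO replicate 2 and by 0.72 with *Kmt2c* KO replicate 1. The values thus set replicate 3 apart and do not show that replicates 1 and 2 are paired by number. The study handled each collection time as a batch. The fit without a block was used throughout because the study's test (DESeq2) had genotype as its factor. DESeq2 1.42.0, the replicate number as a block, other normalizations, filters and thresholds, and fits that left out 1 library were tried as alternatives.

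Every Hox gene that reached a group mean of 1 CPM is described with values and the others by counts and range. From the other lists at most 4 called genes were named, by smallest p. The members and the lists were chosen with earlier results of these data known. Promoter windows came from RefSeq (GRCm38.p6) and were placed in NCBIM37 by exact match. Some genes that the counts include are not reported here by name.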

Additional observations from a re-analysis of the deposited data

Results flagged for a closer look

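For 7 of the pairs of Hox gene and KO reported here the effect differed between the lines by the interaction test in all 18 libraries (edgeR quasi-likelihood test, Benjamini-Hochberg adjusted p below 0.1). For the loss of *Kmt2c* the effect in 67NR minus that in 168FARN was -2.75 ± 0.86 for *Hoxa2* (log2, SE, edgeR adjusted p = 0.0499), -2.37 ± 0.61 for *Hoxa3* (0.0178), -3.08 ± 0.61 for *Hoxa5* (0.00298), -2.89 ± 0.74 for *Hoxa10* (0.0177) and 4.68 ± 0.76 for *Hoxb4* (0.000594). For the loss of *Kmt2d* it was -2.17 ± 0.60 for *Hoxa5* (0.0392) and 3.68 ± 0.75 for *Hoxb4* (0.00564). In all 7 the 67NR effect had the sign of the difference. With 1 library left out, *Hoxa5* for the loss of *Kmt2d* was no longer called without 168FARN WT replicate 3, 168FARN *Kmt2d* KO replicate 1 or 2 or 67NR *Kmt2d* KO replicate 1 or 2 (edgeR adjusted p up to 0.129). Of 20 alternatives the call for the loss of *Kmt2c* held in 13 for *Hoxa2*. *Hoxa9* also passed the test for the loss of *Kmt2c* (-5.35 ± 1.79, edgeR adjusted p = 0.0737), but it had too few counts to be tested within 168FARN, its 10 counts in the *Kmt2c* KO there were all in replicate 1, and without that library the value was 0.03. No difference between the lines is read from it.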

How the results depend on the processing

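Of 588 alternative fits of called genes 533 kept the direction and the call, 54 lost the call and 1 changed direction. Of 274 of named uncalled genes 238 did not change, 24 became called and 12 changed direction. The cause was not tested in any.

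The number called in 67NR ranged from 8 to 11 for the *Kmt2c* KO and from 5 to 8 for the *Kmt2d* KO over the settings, and from 8 to 10 and from 4 to 7 when 1 library was left out. *Hoxa6* in the *Kmt2c* KO lost its call when WT replicate 1 or 3 or KO replicate 2 or 3 was left out (edgeR adjusted p up to 0.196). In the *Kmt2d* KO *Hoxa2* was lost without WT replicate 3 or *Kmt2d* KO replicate 1 or 2 and with only the 6 libraries compared (up to 0.148) and *Hoxa9* without WT replicate 2 or 3 or *Kmt2d* KO replicate 1 or 3 (up to 0.129). *Hoxa5* and *Hoxb4* kept their calls in both KOs under every alternative run. Between the KOs of 67NR the count of 1 became 0 at adjusted p below 0.05 with no fold threshold, 3 with the replicate block and 4 with DESeq2 and the block, and was 0 to 1 with 1 library left out, 0 without *Kmt2c* KO replicate 1, 2 or 3 or *Kmt2d* KO replicate 1 or 2.

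In 168FARN the count of 0 became 1 for the *Kmt2c* KO with the block and with DESeq2 and the block (*Hoxd4*), and 1 for the *Kmt2d* KO and 1 between the KOs with DESeq2 and the block (*Hoxa10*). The interaction count for *Kmt2c* (7) was 4 to 7 with 1 library left out, being 4 without 168FARN WT replicate 2 or 3, 168FARN *Kmt2c* KO replicate 1 or 67NR *Kmt2c* KO replicate 2 or 3. That for *Kmt2d* (2) was 5 with the block, 6 with DESeq2 and the block, and 1 to 3 with 1 library left out, being 1 without 168FARN WT replicate 3, 168FARN *Kmt2d* KO replicate 2 or 67NR *Kmt2d* KO replicate 1 or 2. Between the WT lines 12 to 15 were called. Apart from the genes given beside their results, the replicate block in edgeR changed no other call. The 168FARN WT code of 11 genes was 5 genes at a threshold of 5 CPM and 16 at 0.5 CPM, and the 67NR WT code of 9 genes was 6 and 11.

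Changes of direction were in genes not called in the comparison, apart from the *Hoxa9* interaction. With 1 library left out, *Hoxa7* in 67NR ranged from -0.3 to 0.53 for the *Kmt2c* KO, turning to 0.53 without WT replicate 3 and to 0.05 without KO replicate 2, and from -0.35 to 0.46 for the *Kmt2d* KO, at 0.46 without WT replicate 3. With the block it was 0.08 for the *Kmt2c* KO, and 0.09 with DESeq2 and the block. *Hoxa5* in 168FARN ranged from -0.19 to 0.15 for the *Kmt2c* KO (0.06, 0.07 and 0.15 when WT replicate 1, WT replicate 2 or KO replicate 3 was left out) and from -0.04 to 0.34 for the *Kmt2d* KO (-0.01 and -0.04 when WT replicate 3 or KO replicate 1 was left out). The line difference ranged from -0.25 to 1.25 for *Hoxa4* and from -0.12 to 0.71 for *Hoxa7*, the low ends without 67NR WT replicate 3. The *Hoxa9* interaction ranged from -5.87 to 0.03, the latter without 168FARN *Kmt2c* KO replicate 1.

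Chosen after seeing the data, dividing the 67NR counts by 2 gave 9, 6 and 13 called for the 67NR *Kmt2c* KO, the *Kmt2d* KO and the WT lines, leaving out *Rn45s* 9, 6 and 12, and DESeq2 with the block is also from that stage. Depth limits the 26 genes below 1 CPM, most of which could not be tested.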
